A study of Mus musculus with 18 samples.

Results

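The claudins are a family of membrane proteins of epithelial tight junctions, and 10 mouse claudin genes are described here: Cldn1, Cldn2, Cldn3, Cldn4, Cldn6, Cldn7, Cldn8, Cldn10, Cldn18 and Cldn23. They were chosen by symbol, with each gene ID matched to its symbol through the GENCODE vM21 annotation, and all 10 were found among the 46603 genes listed for each of 18 RNA libraries. The annotation held 19 other claudin genes in these tables, which serve as a comparison. Cldn18 (ENSMUSG00000032473) lies at chr9:99689461-99717267 on the minus strand of GRCm38, Cldn4 (ENSMUSG00000047501) at chr5:134945119-134946934 on the minus strand and Cldn1 (ENSMUSG00000022512) at chr16:26356642-26371841 on the minus strand.

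Claudins bind each other within a membrane and across the gap between neighbouring cells, and the strands they form set how tight the seal is and which ions pass between cells. Some members, among them Cldn1, Cldn3 and Cldn4, are known mainly for sealing, while Cldn2 and Cldn10 form pores for ions. In the lung, Cldn18 has a splice form made in alveolar epithelium, and mice without Cldn18 have a leaky alveolar barrier.

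The study asked which lung cells can give rise to tumours driven by mutant EGFR. The mice carried human EGFR with the T790M and L858R changes under the CAG promoter in the Col1a1 locus, silent until Cre removes a stop cassette. Cells sorted from lungs and tracheas of mice without tumours received adenovirus with Cre (Ad-Cre, mutant EGFR on) or with GFP (Ad-GFP, control, mutant EGFR off) and grew as organoids in Matrigel beside support cells from lung. Ad-Cre organoids were then placed in the airways of nude mice, and tumours that formed were grown in culture as tumoroids.

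The 4 tracheal organoid libraries came from NGFR-negative cells, which the study calls club, and from NGFR-positive cells, which it calls basal, each with Ad-GFP and with Ad-Cre, and tracheal values are given in that order. Of the distal lung, Sca1-negative cells (alveolar type 2 cells, AT2) gave 1 Ad-GFP and 1 Ad-Cre organoid library. Sca1-positive cells, enriched for bronchioalveolar stem cells (BASC), gave mixed cultures with Ad-GFP and with Ad-Cre, and Ad-Cre cultures picked by their shape as alveolar or bronchiolar. The 3 cultures called alveolar here are the AT2 cultures with Ad-GFP and Ad-Cre and the alveolar BASC culture, in that order. The 3 mixed and bronchiolar BASC cultures follow in the order mixed Ad-GFP, mixed Ad-Cre and bronchiolar Ad-Cre. The 8 tumoroid libraries, all with Ad-Cre, comprised 3 of AT2 origin, 3 of mixed BASC origin, 1 of bronchiolar BASC origin and 1 from an autochthonous tumour that arose in an adult carrier given Ad-Cre in the lung. Age and strain are not in the labels, and each organoid condition had 1 library, so organoid groups pool populations or viruses and have no replicate of the same condition. AT2 tumoroids 2 and 3 share a number in their titles, as do mixed BASC tumoroids 2 and 3 and the bronchiolar tumoroid, and tests with them take each library as independent. The AT2 tumoroids carry an NGFR-negative sorting label beside their AT2 origin and are placed by origin.

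Total expected counts (the reads that RSEM assigned to genes) had a median of 55182026 in the 10 organoid libraries, with a lowest of 27772660 and a highest of 97191624. In the 8 tumoroid libraries they had a median of 22464438, from 15327265 to 23355938. Organoids were sequenced as TruSeq libraries on a HiSeq and tumoroids as BGI libraries on a DNBSEQ, so wherever tumoroids are set against organoids, platform and transplantation cannot be told apart. The autochthonous tumoroid enters no test. Levels are given as TPM, the abundance of transcripts scaled for gene length and for the library, which can be compared between genes. Fold changes are log2 differences from edgeR on counts, with their standard error (SE), and a gene was called at an adjusted p below 0.05.

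The labels were checked against marker genes. Sftpc, which marks AT2 cells, stood between 60435 and 61211 TPM in the 3 alveolar organoids and between 3.17 and 62.8 TPM in the 4 tracheal organoids. Among the tracheal cultures, Ngfr stood at 53.1, 50.2, 48.3 and 46.6 TPM, so it was no higher in the cultures labelled NGFR positive. Krt5, a basal keratin, stood at 2063, 1899, 1694 and 1549 TPM, and Scgb1a1, which defines club cells, at 11.4, 18.4, 10.4 and 7.03 TPM. The 6 club markers summed to 24979.6, 22436, 21847 and 20889.6 TPM in these cultures (Cbr2 the most abundant), with Scgb3a1 at 2638, 3084, 915 and 934 TPM. The names below are those of the sort alone. The epithelial markers Epcam and Cdh1 stood at 30.8 and 63.7 TPM in AT2 tumoroid 3, the library with the fewest counts, and this library is left out in turn below. Summed endothelial markers (6 genes, Pecam1 the most abundant in every library) reached at most 5.15 TPM, and summed leukocyte markers (4 genes) at most 9.04 TPM. Cldn5, the claudin of endothelium, was at most 0.15 TPM.

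The 10 claudins together made up between 93.7% (AT2 tumoroid 3) and 99.0% (AT2 tumoroid 2) of the TPM of all claudin genes in the tables. Cldn4 was the most abundant claudin in 8 libraries, namely the 4 tracheal organoids, the 3 mixed and bronchiolar BASC organoids and the bronchiolar BASC tumoroid. Cldn18 was the most abundant in 4 libraries, the 3 alveolar organoids and the autochthonous tumoroid. Cldn3 was the most abundant in 6 libraries, all of them AT2 or mixed BASC tumoroids. In share of the members' summed TPM, Cldn4 made up 51.8%, 50.2%, 51.3% and 53.0% in the tracheal organoids and 2.71%, 2.61% and 4.79% in the alveolar organoids. Cldn18 made up at most 0.0173% in the tracheal organoids and 41.99%, 57.5% and 51.2% in the alveolar organoids. These are shares of TPM within a library, so they do not depend on scaling between libraries. The summed TPM of the members ran from 1270 to 1555 in the tracheal organoids and from 899.8 to 1228 in the alveolar organoids, and was lowest at 423 TPM in AT2 tumoroid 3 and highest at 2256 TPM in the bronchiolar BASC organoid.

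**Figure D1:**
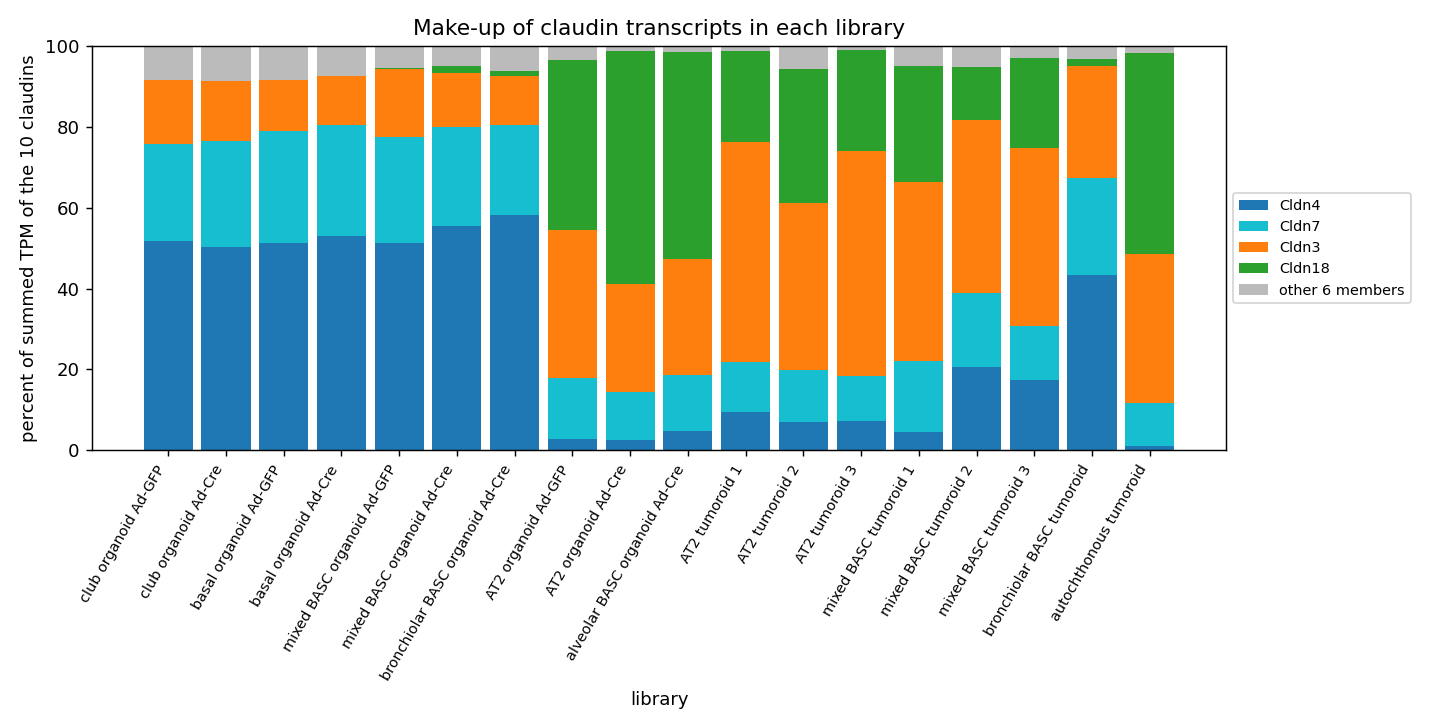
Share of the summed TPM of the 10 claudins (y axis, percent) taken by Cldn4, Cldn7, Cldn3, Cldn18 and the other 6 members in each of 18 libraries (x axis). Cldn4 takes from 50.2% to 53.0% in the 4 tracheal organoids, and Cldn18 from 41.99% to 57.5% in the 3 alveolar organoids.

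Airway cultures were compared with alveolar cultures through the 4 tracheal against the 3 alveolar organoids, beginning with the alveolar claudin. Cldn18 stood at 0, 0.22, 0 and 0.02 TPM in the tracheal organoids and at 378, 697 and 628 TPM in the alveolar organoids. The tracheal libraries held 0, 19, 0 and 1 Cldn18 reads, and a count of 0 allows a level of up to 0.108 CPM (counts scaled by the library total) in the NGFR-negative and 0.0618 CPM in the NGFR-positive Ad-GFP library. Every alveolar library was above every tracheal library, and the AT2 culture with Ad-GFP was the lowest of the alveolar ones. The fitted log2 difference, tracheal minus alveolar, was -13.04 (SE 0.840, adjusted p = 6.82e-06), and it rests on 20 reads on the tracheal side, so its size depends on the fit's handling of low counts. In bulk RNA such as this, fewer cells of a type and less RNA per cell cannot be told apart.

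Among the sealing claudins, Cldn4, which lowers the passage of sodium, was high where Cldn18 was low. Its level was 697, 637, 723 and 824 TPM in the tracheal organoids and 24.4, 31.7 and 58.8 TPM in the alveolar organoids. The groups did not overlap, and the alveolar BASC culture was the highest of the alveolar ones (log2 difference 4.05, SE 0.351, adjusted p = 2.91e-05). Cldn1, a barrier claudin needed in skin, stood far lower than Cldn4 on the TPM scale, at 9.60, 8.75, 11.9 and 11.6 TPM in the tracheal organoids and 1.15, 0.74 and 0.70 TPM in the alveolar ones. It too did not overlap between the groups (log2 difference 3.43, SE 0.220, adjusted p = 6.61e-06, and 2.17 under the scaling to epithelial genes given below). Cldn7, found at junctions and along the lateral membrane, was at 323, 332, 389 and 429 TPM in the tracheal and 136, 143 and 169.8 TPM in the alveolar organoids. Cldn7 had a log2 difference of 1.11 (SE 0.135, adjusted p = 0.000171), which turned to -0.10 (adjusted p = 0.499) when libraries were scaled to hold the epithelial genes Epcam, Cdh1, Krt8 and Krt18 constant. Cldn3 went the other way, with 211, 189, 179.8 and 185 TPM in the tracheal and 329, 325 and 354 TPM in the alveolar organoids. Its groups did not overlap either, although the gap was small beside that of Cldn18 (log2 difference -0.98, SE 0.0816, adjusted p = 2.37e-05, and -2.20 under the epithelial scaling).

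Of the pore-forming members, Cldn2, a channel for cations and water, stood at 0.41, 0.65, 0.19 and 0.15 TPM in the tracheal and 29.2, 12.6 and 12.2 TPM in the alveolar organoids. Cldn10, whose splice forms pass cations or anions, stood at 16.6, 20.0, 15.2 and 17.7 TPM in the tracheal and 0.23, 0.15 and 0.91 TPM in the alveolar organoids. These pore-forming members thus lay on opposite sides, with log2 differences of -5.91 for Cldn2 (SE 0.530, adjusted p = 3.48e-05) and 5.15 for Cldn10 (SE 0.513, adjusted p = 6.02e-05). Cldn6, a claudin of embryonic epithelia, was at 8.69, 5.75, 8.43 and 11.6 TPM in the tracheal organoids and at 0.44 TPM or below in the alveolar ones (log2 difference 4.52, SE 0.332, adjusted p = 1.28e-05). The Cldn6 gene lies 138 bases from Cldn9, and reads near the gap may be assigned to either. Cldn8, a barrier claudin of kidney and colon, was at 8.73, 8.30, 4.73 and 3.66 TPM against 1.26, 1.3 and 1.89 TPM (log2 difference 1.92, SE 0.357, adjusted p = 0.00172). Cldn23, a less studied member, was at 70.1, 66.9, 76.5 and 72.4 TPM in the tracheal organoids and at 0, 0.11 and 1.36 TPM in the alveolar ones. Those alveolar values stand on 0, 11 and 66 reads, and the log2 difference was 7.33 (SE 0.947, adjusted p = 0.000241).

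All 10 members passed the filter on low counts and all 10 were called between tracheal and alveolar organoids, 7 higher in tracheal and 3 higher in alveolar cultures, where 67% of the 18135 genes tested were called. Cldn18 and Cldn23 passed the filter through the group in which they were high. With at least 10 counts asked of every library 8 members were tested, without these, and 8 called, as were 9940 of 14832 genes. The median log2 difference of the members was 2.68, against 0.04 over all genes tested. The members were chosen with earlier results of these data known. Counts and medians of members, here and below, therefore describe the chosen genes and not claudins at large. Of the other claudins 6 were tested, with a median of -1.30. Under the epithelial scaling the median of all genes moved to -1.19 and 8 of 10 members were called, as were 15593 of the 18135 genes. The exceptions among the members were Cldn7, with its sign turned, and Cldn8, at 0.74 (adjusted p = 0.0535). DESeq2 called 9 of 10 members and 12070 of the 18135 genes. It gave no adjusted p for Cldn23, whose log2 difference was 6.95 there. Leaving out any 1 of the 7 libraries kept the count at 10, although Cldn18 moved to -16.71 without the NGFR-negative Ad-Cre culture and Cldn23 to 10.01 without the alveolar BASC culture. Over all genes these fits called from 11074 to 12120. With the bronchiolar BASC culture counted as airway, Cldn2 moved to -3.70 (adjusted p = 0.0220) and Cldn18 to -6.78 (adjusted p = 0.0253).

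**Figure D2:**
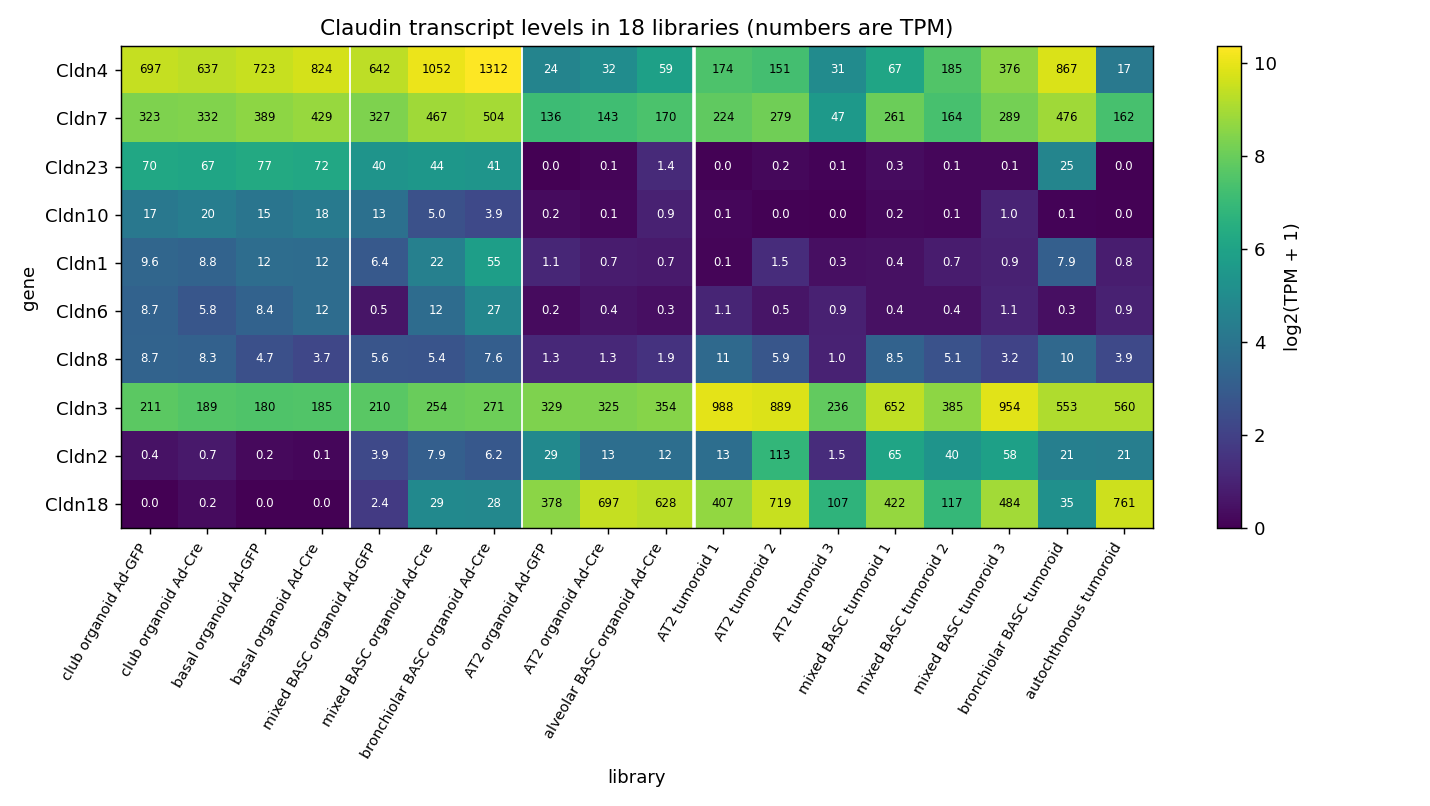
Levels of the 10 claudins (y axis) in 18 libraries (x axis), coloured by log2(TPM + 1) and with the TPM printed in each cell. The 4 tracheal organoids are high in Cldn4 (637 to 824 TPM) and near 0 in Cldn18, and the 3 alveolar organoids are high in Cldn18 (378 to 697 TPM).

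Bronchiolar features within the distal lung were compared through the 3 mixed and bronchiolar BASC organoids against the same 3 alveolar organoids, so the alveolar side is shared with the tracheal comparison. The paper states that BASC organoids were separated by hand, during passage, into alveolar, bronchiolar and mixed cultures. Subcultures of BASC organoids thus stand on each side, and the p-values take them as independent. Cldn18 stood at 2.43, 28.9 and 27.9 TPM in the mixed Ad-GFP, mixed Ad-Cre and bronchiolar cultures. All were below the lowest alveolar value of 378 TPM, while each was above the tracheal values (log2 difference -4.92, SE 0.981, adjusted p = 0.00989). Cldn4 stood at 642, 1052 and 1312 TPM, with the mixed Ad-GFP culture inside the tracheal range, the others above it and all far above the alveolar range (log2 difference 4.55, SE 0.485, adjusted p = 0.00146). Cldn1 stood at 6.36, 21.9 and 54.7 TPM, each above the alveolar values and with the bronchiolar culture the highest of all 18 libraries (log2 difference 4.84, SE 0.812, adjusted p = 0.00559). Cldn7 was at 327, 467 and 504 TPM, also above the alveolar values, with a log2 difference of 1.32 (SE 0.167, adjusted p = 0.00235) that turned to -0.32 (adjusted p = 0.230) under the epithelial scaling. Cldn3 was at 210.0, 254 and 271 TPM, below each alveolar culture (log2 difference -0.60, SE 0.130, adjusted p = 0.0135).

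Cldn2 in these BASC cultures stood at 3.91, 7.89 and 6.24 TPM, between the tracheal and the alveolar levels (log2 difference from alveolar -1.71, SE 0.432, adjusted p = 0.0220). Cldn10 stood at 13.2, 5.01 and 3.92 TPM, with the mixed Ad-GFP culture near the tracheal level (log2 difference 3.87, SE 0.846, adjusted p = 0.0134). Cldn6 was spread most widely, at 0.51, 11.8 and 27.0 TPM, and its lowest value was close to the alveolar maximum of 0.44 TPM (log2 difference 5.14, SE 1.32, adjusted p = 0.0233). Cldn8 was at 5.61, 5.44 and 7.56 TPM (log2 difference 1.91, SE 0.274, adjusted p = 0.00337) and Cldn23 at 39.97, 44.2 and 40.7 TPM (log2 difference 6.36, SE 1.41, adjusted p = 0.0143). All 10 members were tested and all 10 called, 7 higher and 3 lower in the BASC cultures, where 42% of 18070 genes were called. Cldn23 passed the filter through the BASC cultures. With at least 10 counts asked of every library 9 members were tested and 9 called, as were 6717 of 15616 genes. The median log2 difference of all 10 under the main filter was 2.89, against 0.04 over all genes. The epithelial scaling moved the median of all genes to -1.57 and called 14694 of the 18070 genes. This scaling left 8 of 10 members called, without Cldn7 and Cldn8 (0.32, adjusted p = 0.469). Under it Cldn3 stood at -2.22 and Cldn2 at -3.45, further from 0 than before, and Cldn1 at 2.98, Cldn4 at 2.95, Cldn6 at 3.31 and Cldn10 at 2.53, nearer to 0. Some calls were lost with 1 library fewer, at log2 differences close to those above. The Cldn6 call was lost without the mixed Ad-Cre culture (5.20, adjusted p = 0.0542), the AT2 Ad-GFP culture (4.91, 0.0859), the AT2 Ad-Cre culture (5.37, 0.0808) or the alveolar BASC culture (5.17, 0.0709). The Cldn10 call was lost without the AT2 Ad-GFP (3.55, 0.0533) or AT2 Ad-Cre culture (3.46, 0.0507). The Cldn23 call was lost without the AT2 Ad-Cre culture (5.80, 0.0538) and the Cldn2 call without the bronchiolar culture (-1.71, 0.0566). Over all genes these fits called from 4826 to 7496, against 7589 with all libraries. Cldn23 stayed called without the alveolar BASC culture but moved to 9.30.

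Cldn18 was then set against Cldn4 and Cldn1 inside each library, as log2 of the ratio of TPM + 1, a quantity that needs no scaling between libraries. The Cldn18 to Cldn4 log2 ratio was -9.45, -9.03, -9.50 and -9.66 in the tracheal organoids, -7.55, -5.14 and -5.50 in the mixed and bronchiolar BASC organoids and 3.90, 4.42 and 3.40 in the alveolar organoids. The alveolar organoids were thus the only organoids in which Cldn18 exceeded Cldn4. In the tumoroids it was 1.22, 2.24 and 1.76 for AT2 origin, 2.65, -0.65 and 0.36 for mixed BASC origin, -4.58 for the bronchiolar tumoroid and 5.39 for the autochthonous tumoroid. AT2 tumoroids therefore lay below every alveolar organoid in this ratio and above every mixed or bronchiolar BASC organoid, with Cldn18 still above Cldn4 in each. AT2 tumoroid 3, which had low levels of both genes, lay between the other AT2 tumoroids in the ratio.

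The mean Cldn18 to Cldn4 log2 ratio was -9.41 (SD 0.268, n = 4) in tracheal and 3.90 (SD 0.512, n = 3) in alveolar organoids, a difference of -13.31 with an exact two-sided permutation p of 0.0571 (adjusted 0.2 over 8 ratio tests), the smallest that design allows. With Cldn18 at 0.22 TPM or below in the tracheal organoids, the 1 TPM added sets the ratio on that side and the size of the difference, which was -16.26 with 0.1 TPM added in its place. Between BASC and alveolar organoids the difference was -9.97, with an exact permutation p of 0.1 (adjusted 0.2), again the smallest possible. Neither design can reach 0.05. For the 7 transplant tumoroids against the 4 distal Ad-Cre organoids the means were 0.43 (SD 2.48) and -0.71 (SD 5.35), which differed by less than the spread of either group (difference 1.13, exact permutation p = 0.6, adjusted 0.6, smallest possible 0.00606). This difference turned to -0.34 without the mixed Ad-Cre organoid and to -0.46 without the bronchiolar organoid, and reached 2.84 without the AT2 organoid. Between AT2 and mixed BASC tumoroids the difference was 0.95 (exact permutation p = 0.5, adjusted 0.6), with 1.88 without mixed BASC tumoroid 1 and 0.23 without mixed BASC tumoroid 2. The smallest permutation p possible between these tumoroids is 0.1, so that design cannot reach 0.05 either.

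The Cldn18 to Cldn1 log2 ratio was -3.41, -3.00, -3.69 and -3.63 in the tracheal, -1.10, 0.39 and -0.94 in the mixed and bronchiolar BASC and 7.46, 8.65 and 8.53 in the alveolar organoids. It was 8.52, 8.18 and 6.32 in the AT2 tumoroids, 8.26, 6.10 and 7.97 in the mixed BASC tumoroids, 2.03 in the bronchiolar tumoroid and 8.74 in the autochthonous tumoroid. Cldn1 was near or below 1 TPM in the alveolar organoids and in many tumoroids, so the 1 TPM added to it largely sets the ratio there. The tracheal organoids differed from the alveolar ones by -11.64 (exact permutation p = 0.0571, adjusted 0.2, and -15.41 with 0.1 TPM added) and the BASC organoids by -8.77 (exact permutation p = 0.1, adjusted 0.2, and -9.82 with 0.1 TPM added). Tumoroids and distal Ad-Cre organoids differed by 2.61 (exact permutation p = 0.309, adjusted 0.495), with 0.91 without the bronchiolar organoid, 1.36 without the mixed, 4.07 without the alveolar BASC and 4.11 without the AT2 organoid. AT2 and mixed BASC tumoroids differed by 0.23 (exact permutation p = 0.6, adjusted 0.6, smallest possible 0.1), a difference that turned to -0.20 without AT2 tumoroid 1, -0.03 without AT2 tumoroid 2 and -0.44 without mixed BASC tumoroid 2.

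**Figure D3:**
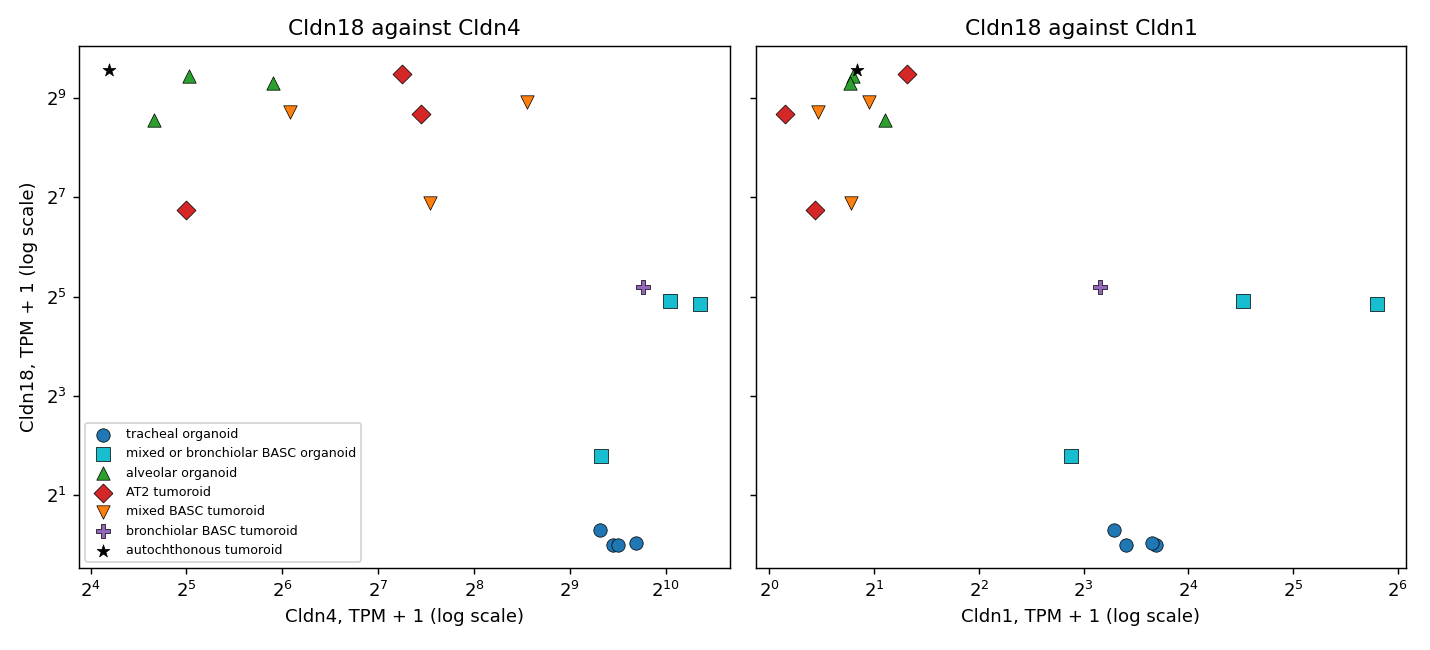
Cldn18 (y axis, TPM + 1 on a log scale) against Cldn4 (left panel, x axis) and Cldn1 (right panel, x axis), each point 1 library with its culture type as the symbol. The 3 alveolar organoids sit at high Cldn18 and low Cldn4 and Cldn1, the 4 tracheal organoids at the opposite corner of the Cldn4 panel, and the bronchiolar tumoroid (35.4 TPM Cldn18, 867 TPM Cldn4) near the BASC organoids.

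The sort for NGFR in trachea was compared through 2 NGFR-negative and 2 NGFR-positive cultures. The 2 cultures of each kind come from 1 sorted population divided between the viruses, and the p-values here take them as independent, as they do in every other group that holds both viruses of a population. Here 9 members were tested, without Cldn18, and edgeR called 0 of 9, with 6 at an unadjusted p below 0.05, while DESeq2 called 2 (Cldn7 and Cldn8). Of all 17234 genes, 0.267% were called by edgeR and 218 by DESeq2, and 1413 had an unadjusted p below 0.05. The member median was -0.15, against -0.01 over all genes. Cldn8 came closest, with 8.73 and 8.30 TPM in the NGFR-negative and 4.73 and 3.66 TPM in the NGFR-positive cultures. These did not overlap (log2 difference 0.99, SE 0.172, adjusted p = 0.0811). Without the NGFR-negative Ad-GFP culture 2 members were called, with Cldn8 at an adjusted p of 0.0136, and without the NGFR-negative Ad-Cre culture 1 was called, Cldn8 at 0.0125. Over all genes these fits called 315 of 18201 and 410 of 18320, more than the 46 with all libraries.

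Cultures with mutant EGFR were compared with controls through 4 Ad-Cre and 4 Ad-GFP cultures in pairs of the same population. All 10 members were tested and edgeR called 0, with 1 at an unadjusted p below 0.05, and DESeq2 called 0. Over all genes, 0% of 17749 were called by edgeR and 5 by DESeq2, and 350 had an unadjusted p below 0.05. Cldn18, the 1 member below 0.05, was at 0.22 with Ad-Cre against 0 TPM with Ad-GFP in NGFR-negative cultures, 0.02 against 0 in NGFR-positive, 697 against 378 in AT2 and 28.9 against 2.43 in mixed BASC cultures. It was higher with Ad-Cre in 4 of 4 populations, but the tracheal values stand on few reads (log2 difference 2.36, SE 0.691, adjusted p = 0.994). The difference was 1.12 without either mixed BASC culture and 3.83 without either AT2 culture. Cldn4 went from 642 TPM with Ad-GFP to 1052 TPM with Ad-Cre in mixed BASC cultures and from 24.4 to 31.7 TPM in AT2 cultures, and lay lower with Ad-Cre in the NGFR-negative cultures, at 637 against 697 TPM, and higher with it in the NGFR-positive cultures, at 824 against 723 TPM. The member median was 0.15, against -0.01 over all genes. Each pair held 1 culture per virus.

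Organoids were compared with tumoroids through the 4 distal Ad-Cre organoids and the 7 tumoroids from transplants. The mixed, alveolar and bronchiolar BASC organoids among them are such subcultures, again taken as independent. The organoid values are given in the order AT2, mixed, alveolar and bronchiolar BASC, and the tumoroids by their lowest, median and highest. Cldn18 had 697, 28.9, 628 and 27.9 TPM in the organoids and 35.4, 407 and 719 TPM in the tumoroids. Its organoids fell into a high and a low pair, the tumoroids spanned the gap, and the fitted log2 difference of 0.06 (SE 0.990, adjusted p = 0.976) took either sign when single libraries were left out (-0.33 to 0.65). Cldn4 had 31.7, 1052, 58.8 and 1312 TPM in the organoids and 30.9, 173.9 and 867 TPM in the tumoroids, and the groups overlapped (log2 difference -1.01, SE 1.02, adjusted p = 0.522). It was -0.38 without the bronchiolar organoid, -0.59 without the mixed organoid and -1.72 without the bronchiolar tumoroid. Cldn1 had 0.74, 21.9, 0.70 and 54.7 TPM in the organoids and 0.11, 0.72 and 7.90 TPM in the tumoroids, where the bronchiolar tumoroid was the highest. The Cldn1 log2 difference was -3.30 (SE 1.27, adjusted p = 0.0900), and it was -4.68 (adjusted p = 0.0183) without the bronchiolar tumoroid and -2.04 (adjusted p = 0.339) without the bronchiolar organoid.

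Cldn6 was the 1 member of 10 that edgeR called between tumoroids and distal Ad-Cre organoids, where 19.6% of 16139 genes were called. It stood at 0.44, 11.8, 0.33 and 27.0 TPM in the organoids, on 35, 626, 13 and 1374 reads, and at 0.33, 0.49 and 1.09 TPM in the tumoroids, on 7 to 23 reads. With at least 10 counts asked of every library it was not among the 6 members tested. Of those 1 was called, Cldn3 (adjusted p = 0.0499), along with 2787 of 12921 genes. The groups overlapped, since the AT2 and alveolar BASC organoids were as low as the tumoroids, and the fall of Cldn6 rests on the mixed and bronchiolar organoids (log2 difference -3.68, SE 0.967, adjusted p = 0.0224). Without the mixed Ad-Cre organoid it was -3.57 (adjusted p = 0.0501) and without the bronchiolar organoid -2.51 (adjusted p = 0.105), leaving 0 members called in each case, with 2147 of 16482 and 1973 of 16486 genes called. DESeq2 called 5 members, Cldn1, Cldn2, Cldn3, Cldn6 and Cldn10, and 4623 of the 16139 genes. Cldn3 had 325, 254, 354 and 271 TPM in the organoids and 236, 652 and 988 TPM in the tumoroids. AT2 tumoroid 3 was the 1 tumoroid below the highest organoid in Cldn3, and the log2 difference was 1.27 (SE 0.419, adjusted p = 0.0542) with it and 1.43 (adjusted p = 0.0135) without it. Cldn2 had 12.6, 7.89, 12.2 and 6.24 TPM in the organoids and 1.47, 39.7 and 113 TPM in the tumoroids. Here too AT2 tumoroid 3 was the lowest, and the log2 difference was 2.27 (SE 0.878, adjusted p = 0.0914) with it and 2.49 (adjusted p = 0.0166) without it.

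The remaining members overlapped between tumoroids and distal Ad-Cre organoids and were not called by edgeR. Cldn10 had a log2 difference of -3.12 (SE 1.05, adjusted p = 0.0586, and -3.51 with 0.0445 without the AT2 organoid). It passed the filter through the organoids, with 17, 259, 38 and 213 reads. Mixed BASC tumoroid 3 held 28 Cldn10 reads and the other tumoroids 0 to 2. Cldn23 had -2.30 (SE 1.82, adjusted p = 0.405), with 25.5 TPM in the bronchiolar tumoroid and at most 0.27 TPM in the other 6. Cldn8 had 0.83 (SE 0.653, adjusted p = 0.403, and from 0.54 to 1.26 with single libraries left out). Cldn7 had -0.21 (SE 0.516, adjusted p = 0.809), a value that turned to 0.038 under the epithelial scaling and to 0.014 and 0.029 without the mixed or the bronchiolar organoid. The median of the members was -0.61, against -0.00 over all genes. The epithelial scaling moved the latter to 0.43 and left 0 members called, with 66 of 16139 genes called. Besides the organoids named, single libraries moved the count of called members from 1 to 3 (without AT2 tumoroid 3) and to 2 (without mixed BASC tumoroid 2, where Cldn3 had an adjusted p of 0.0477, without the bronchiolar tumoroid, or without the AT2 organoid). Over all genes, in the same order, these fits called 3336 of 15954, 2498 of 15947, 3716 of 15965 and 2531 of 16658. With tumoroids of a shared number and origin summed, 3 members were called, along with 3342 of 17292 genes. The bronchiolar tumoroid stayed apart there from the mixed BASC tumoroids that share its number.

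Within the AT2 origin, 3 tumoroids were compared with the 2 AT2 organoids (Ad-GFP and Ad-Cre). Cldn4 stood at 24.4 and 31.7 TPM in the organoids and at 173.9, 151 and 30.9 TPM in tumoroids 1 to 3. Tumoroids 1 and 2 were above both organoids and tumoroid 3 lay between them (log2 difference 2.31, SE 0.879, adjusted p = 0.243). Cldn3 stood at 329 and 325 TPM in the organoids and at 988, 889 and 236 TPM in the tumoroids, again with tumoroid 3 apart from the others (log2 difference 1.33, SE 0.740, adjusted p = 0.395). Cldn18 stood at 378 and 697 TPM in the organoids and at 407, 719 and 107 TPM in the tumoroids. Tumoroid 1 lay between the organoids in Cldn18, tumoroid 2 just above them and tumoroid 3 below them (log2 difference -0.04, SE 0.879, adjusted p = 0.987, and 0.44 without tumoroid 3). Of 8 members tested, without Cldn10 and Cldn23, edgeR called 0, with 1 at an unadjusted p below 0.05, and DESeq2 called 1 (Cldn4). Of all 16000 genes edgeR called 0%, with 3139 at an unadjusted p below 0.05, and DESeq2 called 2532. Without tumoroid 3, edgeR called 4 members, Cldn3 (1.77, adjusted p = 0.0214), Cldn4 (2.79, adjusted p = 0.0214), Cldn7 (0.96, adjusted p = 0.0313) and Cldn8 (2.94, adjusted p = 0.0259), and 3382 of 17428 genes. The member median with all libraries was 1.27, against 0.03 over all genes.

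AT2 tumoroid 3 differed from the other AT2 tumoroids in its marker genes as well. Its 7 fibroblast markers summed to 4263 TPM (Col1a1 the most abundant, 1348 TPM, and none of the 7 at 0), against 296 and 171.9 TPM in tumoroids 1 and 2. Its 10 AT2 markers summed to 33772 TPM, against 148841 and 100510 TPM. The part of this difference in cell markers in the claudin levels was not tested. Over the summed TPM of Epcam, Cdh1, Krt8 and Krt18, the summed claudins stood at 0.571 in tumoroid 3 and at 0.575 and 0.821 in tumoroids 1 and 2. The same ratio was 0.848, 0.973 and 0.884 in the alveolar organoids, from 0.428 to 0.486 in the tracheal organoids and from 0.412 to 0.457 in the mixed and bronchiolar BASC organoids.

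Within the mixed BASC origin, 3 tumoroids were compared with the 2 mixed BASC organoids (Ad-GFP and Ad-Cre). Cldn23 stood at 39.97 and 44.2 TPM in the organoids and at 0.27, 0.15 and 0.12 TPM in the tumoroids, on 6, 4 and 3 reads. It fell by 7.83 on the log2 scale (SE 0.369, adjusted p = 0.00197), with no overlap. Cldn1 stood at 6.36 and 21.9 TPM in the organoids and at 0.38, 0.72 and 0.93 TPM in the tumoroids. It also fell without overlap, by 4.33 (SE 0.699, adjusted p = 0.0178), although its call was lost without mixed BASC tumoroid 1 (-4.01, adjusted p = 0.0571) or the Ad-Cre organoid (-3.17, adjusted p = 0.0654). Cldn2 stood at 3.91 and 7.89 TPM in the organoids and at 65.3, 39.7 and 58.4 TPM in the tumoroids. It rose by 3.23 (SE 0.423, adjusted p = 0.0126), with every tumoroid above both organoids. These 3 were the members called, 1 higher and 2 lower of 10 tested, where 18.7% of 16793 genes were called, and 8 of 10 had an unadjusted p below 0.05, as had 6278 of all genes. Cldn23 passed the filter through the organoids, with 2506 and 2918 reads. With at least 10 counts asked of every library 7 members were tested, without Cldn6, Cldn10 and Cldn23. Of these 2 were called (Cldn1 and Cldn2), as were 2180 of 13955 genes.

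Cldn18 in the mixed BASC origin stood at 2.43 and 28.9 TPM in the organoids and at 422, 117 and 484 TPM in the tumoroids. Each tumoroid was above both organoids, but the organoids differed widely from each other (log2 difference 4.50, SE 1.303, adjusted p = 0.0633, and 7.32 with an adjusted p of 0.0307 without the Ad-Cre organoid). Cldn4 stood at 642 and 1052 TPM in the organoids and at 66.7, 184.7 and 376 TPM in the tumoroids. All tumoroids were below both organoids (log2 difference -1.94, SE 0.728, adjusted p = 0.114). Cldn3 stood at 210.0 and 254 TPM in the organoids and at 652, 385 and 954 TPM in the tumoroids (log2 difference 1.57, SE 0.441, adjusted p = 0.0588, and 1.84 with an adjusted p of 0.0388 without tumoroid 2). Cldn10 passed the filter through the organoids, with 708 and 259 reads, against 2, 2 and 28 in tumoroids 1 to 3. It had a log2 difference of -4.05 (SE 1.25, adjusted p = 0.0732), which was -6.45 (adjusted p = 0.0322) without tumoroid 3, on 2 reads in each remaining tumoroid. Cldn6 had -3.25 (SE 1.28, adjusted p = 0.126), which turned to 0.33 without the Ad-Cre organoid. Cldn7 had -0.69 (SE 0.321, adjusted p = 0.177), which turned to 0.16 under the epithelial scaling and ran from -0.95 to -0.45 with single libraries left out. Cldn8 had 0.02 (SE 0.451, adjusted p = 0.975), whose sign turned without tumoroid 1 (-0.33). The member median was -1.31, against -0.01 over all genes. DESeq2 called 8 of 10 members and 5777 of the 16793 genes. The epithelial scaling gave 6 members and 5215 genes, with the median of all genes moved to 0.86.

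Beside these values, 6 of 10 AT2 markers were called higher in the mixed BASC tumoroids and 0 lower, where 18.7% of all genes were called. Their summed TPM was 1999 and 5032 in the organoids and 71699, 35374 and 59516 in the tumoroids, with Sftpc the most abundant in each tumoroid (21223 to 53064 TPM). All 6 basal and all 6 ciliated markers fell, and the basal sum went from 2821 and 1823 TPM in the organoids to 15.3, 11.8 and 19.2 TPM in the tumoroids, with Krt5 at 0, 0.30 and 0.14 TPM. Of club markers 3 of 6 were called lower, and of alveolar type 1 markers 4 of 8 higher. Their part in the claudin values was not tested. The bronchiolar tumoroid had a basal sum of 1492 TPM, with Krt14 at 1316 and Krt5 at 103 TPM, and the bronchiolar organoid a basal sum of 899.6 TPM, with Krt14 at 367 and Krt5 at 426 TPM. The AT2 sum of this tumoroid was 9179 TPM, and its claudins stood at 35.4 TPM for Cldn18, 867 for Cldn4, 7.90 for Cldn1 and 25.5 for Cldn23. The bronchiolar organoid had 27.9 TPM for Cldn18, 1312 for Cldn4, 54.7 for Cldn1 and 40.7 for Cldn23. With 1 library on each side, this pair has no replicate check.

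Whether the step from organoid to tumoroid differed between the AT2 and mixed BASC origins was tested as an interaction. Of 10 members, edgeR called 0, with 5 at an unadjusted p below 0.05, and DESeq2 called 5. Of all 17592 genes, 0.227% were called by edgeR and 2022 by DESeq2, and 3055 had an unadjusted p below 0.05. The value is the AT2 step minus the mixed BASC step. It was 8.56 for Cldn23 (SE 1.52, adjusted p = 0.0560), whose AT2 libraries held at most 11 reads each, 4.72 for Cldn6 (SE 1.63, adjusted p = 0.181), 4.23 for Cldn4 (SE 1.26, adjusted p = 0.138), 3.95 for Cldn1 (SE 1.44, adjusted p = 0.203) and -4.53 for Cldn18 (SE 1.64, adjusted p = 0.200). With 1 library left out in turn, Cldn1 ranged from 2.27 (without AT2 tumoroid 2) to 4.60 and Cldn18 from -7.38 (without the mixed BASC Ad-Cre organoid) to -3.62. Cldn6 was 1.11 without the mixed BASC Ad-Cre organoid, Cldn4 ranged from 3.79 to 5.03, and Cldn23 from 7.66 to 12.78 (without the AT2 Ad-Cre organoid). Without AT2 tumoroid 3, 3 members were called, Cldn4 (4.70, adjusted p = 0.0430), Cldn8 (2.88, adjusted p = 0.0487) and Cldn23 (8.75, adjusted p = 0.0384), along with 720 of 17435 genes. Cldn23 passed the filter through the mixed BASC organoids, with 2506 and 2918 reads, so its call rests on those organoids. The mixed BASC tumoroids held 6, 4 and 3 Cldn23 reads. The member median was 2.23, against 0.06 over all genes.

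After transplantation, AT2 and mixed BASC tumoroids overlapped in all 10 claudins. The share of all genes that overlapped was not counted, so the overlap is not a trait particular to claudins. Of 8 members tested, without Cldn10 and Cldn23, edgeR called 0, with 0 at an unadjusted p below 0.05, DESeq2 called 0, and edgeR called 0% of 15470 genes, with 144 at an unadjusted p below 0.05. The log2 difference, AT2 minus mixed BASC, was 0.48 for Cldn18 (SE 0.805, adjusted p = 1.00), which turned to -0.26 without AT2 tumoroid 2. For Cldn4 it was -0.63 (SE 0.857, adjusted p = 1.00), which turned to 0.14 without mixed BASC tumoroid 3. These errors leave room for differences in either direction. The member median was 0.20, against 0.04 over all genes.

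Other junction genes gave a setting for the claudins. Of 22 partners of claudins in tight junctions (scaffolds such as Tjp1 and Cgn, and membrane proteins such as Ocln), 9 were higher and 7 lower in tracheal than in alveolar organoids, with a median of 0.05, where 67% of all genes were called. Those with the largest differences were the adhesion molecule Jam3 (-2.33, adjusted p = 3.74e-06), the scaffold Magi3 (-2.03, adjusted p = 6.13e-06) and the tricellular junction protein Ildr1 (1.84, adjusted p = 1.63e-06). Of 11 adherens junction genes, 8 were higher and 2 lower, with a median of 0.57, and of the other claudins 1 was higher and 4 lower among 6 tested. Between BASC and alveolar organoids the counts were 6 higher and 4 lower of 22 partners and 7 higher and 0 lower of 11 adherens junction genes, and for the other claudins 1 higher and 2 lower of 8, where 42% of all genes were called. Between tumoroids and distal Ad-Cre organoids 0 partners were higher and 1 lower, where 19.6% of all genes were called. In the mixed BASC origin 2 were higher (Magi1 and Magi3) and 3 lower (Ocln, Cxadr and Ildr1), where 18.7% were.

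A list of 15 transcription factors known to act on epithelial junction genes was counted in the same way. The list was chosen with earlier results of these data known. It holds factors of cell lineage, among them Trp63, which is also 1 of the basal markers. Its counts are therefore a description and no independent support. All 15 were called between tracheal and alveolar organoids, 10 higher and 5 lower, where 67% of all genes were called. The counts were 10 and 5 between BASC and alveolar organoids as well, where 42% were. In the tracheal comparison the largest log2 differences were -4.76 for Foxa2 (adjusted p = 2.89e-06), 4.71 for Sox2, a factor of airway epithelium (adjusted p = 0.000831), and 4.55 for Trp63, a factor of basal cells (adjusted p = 5.21e-05). In the mixed BASC origin 6 of 15 were called, where 18.7% of all genes were. There Nkx2-1 (1.84, adjusted p = 0.0256) and Foxa2 (2.55, adjusted p = 0.0252) rose in tumoroids, while Grhl1 (-1.81, adjusted p = 0.0102), Elf3 (-1.78, adjusted p = 0.0425), Foxa1 (-2.18, adjusted p = 0.0151) and Trp63 (-3.67, adjusted p = 0.0318) fell. Between all 7 tumoroids and the distal Ad-Cre organoids edgeR called 0 of 15, with 0 at an unadjusted p below 0.05. Over all 16139 genes 19.6% were called in that comparison, and 5537 had an unadjusted p below 0.05.

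Cell type markers moved with the tracheal and alveolar comparison too. All 10 AT2 markers were lower in the tracheal organoids, where they summed to 1214, 1506, 912 and 1056 TPM (Sftpd the most abundant), against 98178, 87281 and 87040 TPM in the alveolar organoids (Sftpc the most abundant), with none at 0. All 6 basal and 6 ciliated markers and 5 of 6 club markers were higher in the tracheal organoids, where 67% of all genes were called. The sixth club marker, Scgb1a1, was lower there (log2 difference -6.02, adjusted p = 0.000765), with 50.9, 1221 and 762 TPM in the alveolar organoids. Of alveolar type 1 markers 2 of 8 were higher and 5 lower. The basal markers summed to 4112, 3756, 3471 and 3065 TPM in the tracheal organoids (Krt5 the most abundant) and to 9.15, 13.2 and 135.9 TPM in the alveolar ones. All 7 fibroblast markers were lower in the tracheal organoids, with sums of 855, 795, 785 and 828 TPM against 3386, 2866 and 1581 TPM in the alveolar organoids (Col3a1 the most abundant there). All 4 epithelial genes used for scaling were higher in tracheal organoids, with a median of 0.98. Between BASC and alveolar organoids, where 42% of all genes were called, all 10 AT2 markers were lower. All 6 basal, 5 of 6 club and 5 of 6 ciliated markers were higher in the BASC cultures and 4 of 7 fibroblast markers lower. Of alveolar type 1 markers 2 of 8 were higher and 4 lower there, and all 4 epithelial genes were higher, with a median of 1.63. The part of these markers in the claudin differences was not tested.

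The genes whose pattern over the 18 libraries was closest to 3 of the claudins, by Pearson correlation of log2(TPM + 1) among 11564 genes with a mean of at least 5 TPM, are given as a description, since the libraries fall into culture types and share platforms. For Cldn18 they were Lpcat1 (r = 0.988, n = 18), Atp13a4 (r = 0.986, n = 18) and Dram1 (r = 0.984, n = 18). For Cldn4 they were Fam107b (r = 0.975, n = 18), Syt8 (r = 0.972, n = 18) and S100a14 (r = 0.967, n = 18). For Cldn1 they were Calcb (r = 0.981, n = 18), Gm7897 (r = 0.975, n = 18) and Tmprss11e (r = 0.970, n = 18).

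The members do not lie together in the genome, apart from Cldn3 and Cldn4, which are 39280 bases apart on chromosome 5. They nevertheless lay on opposite sides of the tracheal and alveolar comparison, at -0.98 for Cldn3 and 4.05 for Cldn4 in log2 difference.

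The promoters of the contrasted genes are printed because Cldn18 was high in cultures where Cldn4 and Cldn1 were low. RefSeq promoters of GRCm38.p6 (250 bases before to 50 after each start) were found for 8 of 10 members, with 11 starts among them, and Cldn8 and Cldn23 had no entry. Each was searched on both strands for TGANTCA (AP-1, in 7.81% of all 32851 promoters), AACNGGTT (GRHL, 2.09%), GGAATG (TEAD, 14.7%) and CAAGTG (NKX2-1, 13.6%), and capitals mark the matches. The Cldn4 promoter (chr5:134946885-134947184, minus strand) held TGACTCA at 240 and 158 bases before the start and none of the other motifs. The Cldn1 promoter (chr16:26371790-26372089, minus strand) held CAAGTG at 207 bases before the start. Cldn18 has a downstream start (chr9:99710014-99710313, minus strand), with CAAGTG at 98 bases before it, and an upstream start (chr9:99717218-99717517, minus strand) with no match, and counts per gene do not separate them. Of the 11 member promoters, 1 held the AP-1 letters, 0 the GRHL letters, 3 the TEAD letters and 5 the NKX2-1 letters. The NKX2-1 letters lay in promoters of Cldn1, Cldn7 and Cldn10 (each of its starts), higher in tracheal organoids, and of Cldn18, higher in alveolar ones. Because the motifs were chosen with these sequences in view, the counts are no measure of enrichment. A match is a description of the letters and not a site of binding. The sequences run 5′ to 3′ on the strand of the gene.
Cldn4: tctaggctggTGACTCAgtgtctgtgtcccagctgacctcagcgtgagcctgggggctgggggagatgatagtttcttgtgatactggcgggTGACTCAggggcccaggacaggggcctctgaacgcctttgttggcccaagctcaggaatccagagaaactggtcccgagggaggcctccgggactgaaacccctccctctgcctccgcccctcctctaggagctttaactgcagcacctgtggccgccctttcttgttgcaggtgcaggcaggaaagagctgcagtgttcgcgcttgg
Cldn1: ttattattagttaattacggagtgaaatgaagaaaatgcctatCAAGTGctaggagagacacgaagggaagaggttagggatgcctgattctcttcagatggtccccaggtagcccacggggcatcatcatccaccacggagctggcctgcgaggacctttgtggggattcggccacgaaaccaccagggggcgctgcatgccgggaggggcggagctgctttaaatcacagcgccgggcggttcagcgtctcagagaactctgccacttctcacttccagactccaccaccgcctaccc
Cldn18 downstream start: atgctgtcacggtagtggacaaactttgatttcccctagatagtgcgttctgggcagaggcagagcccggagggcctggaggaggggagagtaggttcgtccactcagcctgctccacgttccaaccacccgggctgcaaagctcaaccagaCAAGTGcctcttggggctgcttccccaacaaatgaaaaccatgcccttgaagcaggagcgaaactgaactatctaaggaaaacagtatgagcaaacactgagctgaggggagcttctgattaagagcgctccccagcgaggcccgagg
Cldn18 upstream start: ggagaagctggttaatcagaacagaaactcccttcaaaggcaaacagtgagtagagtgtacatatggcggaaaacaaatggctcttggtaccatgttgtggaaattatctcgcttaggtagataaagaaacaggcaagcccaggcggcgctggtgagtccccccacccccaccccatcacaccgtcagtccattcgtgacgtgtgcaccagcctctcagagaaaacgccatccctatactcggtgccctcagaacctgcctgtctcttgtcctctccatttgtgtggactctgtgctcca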

How the data were processed

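RNA of 18 mouse cultures was sequenced by the study, and each was placed in a group by its labels. Per the submitters' processing notes, reads were trimmed with Trimmomatic 0.39 and assigned to genes of GRCm38 with STAR 2.6.1d and RSEM 1.3.2. The authors deposited RSEM's expected count for every gene of a library, which is not normalized between libraries. The authors also deposited TPM, which RSEM scales for gene length and library. Of 46603 gene IDs, 46091 matched GENCODE vM21 and 512 did not.

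Expected counts were rounded and fitted in R 4.3.3 with edgeR 4.0.16, using only the libraries of each comparison, filterByExpr, TMM factors, the quasi-likelihood F test and Benjamini-Hochberg adjustment over all genes tested. The SE of a fold change is its size divided by the root of F. Ad-Cre and Ad-GFP cultures were paired by population, because the sorted cells of a population were divided between the viruses. In those pairs, deviations from the mean over populations correlated from 0.354 to 0.947 across 11564 genes. Log2 ratios of TPM with a pseudocount of 1 were compared by exact two-sided permutation tests in scipy 1.17.1, with Benjamini-Hochberg adjustment over 8 tests. Alternatives were DESeq2 1.42.0, upper-quartile factors, scaling to the geometric mean of Epcam, Cdh1, Krt8 and Krt18, other filters on low counts (none, or 10 counts in every sample), a pseudocount of 0.1, other groupings and each library left out. Each fit was tested on simulated data. Where a group was left with 1 library, that library was assumed to vary like the other group.

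A count of 0 was given a limit of 3 counts, and such limits cover counting error only. The text names all 10 members, genes of the other lists past an adjusted p of 0.05 with a mean of at least 5 TPM in either group (at most 6 a list, by size of difference), and the 3 genes closest to Cldn18, Cldn4 and Cldn1 in pattern. The members and lists were chosen with earlier results of these data known, and the motifs were chosen with the promoter sequences in view. Promoters are from RefSeq (GRCm38.p6) and were matched by symbol. Human EGFR was not analysed.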

Additional observations from a re-analysis of the deposited data

Results flagged for a closer look

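Of 30 combinations of a gene and a group of 4 to 7 libraries, 4 had 1 library far from the others, where chance alone marks about 1 in 20. Among the 4 tracheal organoids, Cldn18 stood at 0.22 TPM in the NGFR-negative Ad-Cre culture, on 19 reads, above 0 to 0.02 TPM in the others. The same library had 62.8 TPM of Sftpc, against 3.17 to 5 TPM in the other tracheal organoids. Among the 7 tumoroids from transplants, the bronchiolar BASC tumoroid stood apart with 7.90 TPM of Cldn1 and 25.5 TPM of Cldn23. Mixed BASC tumoroid 3 stood apart with 1.03 TPM of Cldn10, on 28 reads.

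The autochthonous tumoroid enters no comparison. It had 559.8 TPM of Cldn3 and 760.9 TPM of Cldn18, both above the 4 Ad-GFP organoids, where Cldn3 was at most 329 TPM and Cldn18 at most 378 TPM. With 1 library from another sequencing platform, the difference was not tested.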

How the results depend on the processing

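Of 851 recomputed values, 191 were counts of called members or differences in ratio, of which 163 kept their direction and stayed within 1.5 times, 23 moved and 5 turned sign. The other 660 were fold changes of named members, of which 581 kept their sign and their call, 40 newly passed the threshold, 18 no longer passed it and 21 turned sign. Folds that kept both could still move in size, as Cldn3 between BASC and alveolar organoids did from -0.60 to -2.22 under the epithelial scaling, and Cldn18 between tracheal and alveolar organoids from -13.04 to -6.78 with the bronchiolar BASC culture counted as airway. The cause of these shifts was not tested. Depth limits Cldn18 in tracheal organoids, Cldn6 in all tumoroids and Cldn10 and Cldn23 in most, which rest on few reads.

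With DESeq2, 2 members were called between NGFR-negative and NGFR-positive cultures, 5 between tumoroids and distal organoids, 1 in the AT2 and 8 in the mixed BASC origin, and 5 in the interaction. Under the epithelial scaling these counts were 1 for the NGFR sort, 0 for tumoroids and organoids and 6 in the mixed BASC origin, and without a filter on low counts 4 for the NGFR sort and 1 in the interaction. For tumoroids and organoids the count was 0 without the bronchiolar tumoroid and organoids (2230 of 16317 over all genes). It was 2 with Ad-GFP organoids included (4458 of 15635) and 3 with tumoroids of a shared number and origin summed (3342 of 17292). With single libraries left out it ran from 0 to 3, and from 0 to 2 for the NGFR sort, 0 to 4 in the AT2 origin, 0 to 3 in the interaction and 7 to 10 between BASC and alveolar organoids. Leaving out the pairing of Ad-Cre with Ad-GFP cultures changed no call.

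Under the epithelial scaling Cldn7 turned to -0.10 (tracheal against alveolar), -0.32 (BASC against alveolar), 0.038 (tumoroids against organoids) and 0.16 (mixed BASC origin), and Cldn18 to -0.49 between tumoroids and organoids, where it was -0.12 without the bronchiolar tumoroid and organoids. In the mixed BASC origin Cldn8 turned to -0.050 without a filter and -0.015 with at least 10 counts in every sample. With single libraries left out, tumoroid against organoid values ran from -0.33 to 0.65 for Cldn18 and -0.45 to 0.029 for Cldn7, and from -0.46 to 2.84 for the ratio of Cldn18 to Cldn4. Cldn18 ran from -0.73 to 0.46 in the AT2 origin, and in the mixed BASC origin Cldn6 from -4.24 to 0.33 and Cldn8 from -0.33 to 0.29. Between AT2 and mixed BASC tumoroids Cldn18 ran from -0.26 to 0.96, Cldn4 from -1.06 to 0.14 and the ratio of Cldn18 to Cldn1 from -0.44 to 0.91.

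Over all genes, the epithelial scaling called 1889 higher and 13704 lower in tracheal than in alveolar organoids, against 6184 and 5966, and 944 and 13750 against 3666 and 3923 for BASC cultures. It called 4158 higher and 1057 lower against 1353 and 1781 in the mixed BASC origin. It called 66 genes against 3167 for tumoroids and organoids, 102 against 46 for the NGFR sort, 6 against 0 in the AT2 origin and 86 against 40 in the interaction. It moved the median of all genes by over 0.1 also between AT2 and mixed BASC tumoroids (0.76), with Cre (-0.21) and in the interaction (-0.80). DESeq2 called 218 genes for the NGFR sort, 2532 and 5777 in the AT2 and mixed BASC origins and 2022 in the interaction. Without a filter 650 were called for the NGFR sort, 125 in the AT2 origin and 214 in the interaction. With single libraries left out the counts ran from 52 to 410 for the NGFR sort, 337 to 2308 in the mixed BASC origin, 0 to 3382 in the AT2 origin, 0 to 720 in the interaction, 1973 to 3716 for tumoroids and organoids and 4826 to 7812 between BASC and alveolar organoids.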

Other observations

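In the autochthonous tumoroid Cldn4 stood at 17.2 TPM, the lowest of all 18 libraries, and Cldn2 at 20.8, Cldn7 at 162, Cldn8 at 3.87, Cldn1 at 0.78 and Cldn6 at 0.91 TPM. Cldn10 stood at 0.04 TPM and Cldn23 at 0. Its summed claudins were 1.17 times the summed TPM of Epcam, Cdh1, Krt8 and Krt18, the highest of the 18 libraries. Its AT2 markers summed to 148544 TPM (Sftpc the most abundant, 117673 TPM) and its fibroblast markers to 1050 TPM.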
